A study of Homo sapiens with 4 samples.

Results

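The miR-130 and miR-301 family was measured by small RNA sequencing in human hepatocellular carcinoma (HCC) cells and in hepatic cancer stem cells (HCSCs) grown from them. Its 5 guide strands, hsa-miR-130a, hsa-miR-130b, hsa-miR-301a, hsa-miR-301b and hsa-miR-454, were taken by name from the 1733 miRNAs counted in each library. The 4 libraries came from 2 established hepatoma lines, Hep3B and Huh7, which stood for HCC cells, and from the stem-like populations Hep3B-C and Huh7-C (HCSCs) that the study had cultured from the respective line. Each condition was 1 library without replicates. Each HCSC population was derived from 1 line, so the 2 pairs are 2 instances of the model and the comparison of HCSCs with HCC cells has 2 libraries on each side.

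A miRNA guides the silencing complex to messenger RNAs mainly through its seed, the short stretch near its 5′ end, so miRNAs with the same seed share many targets. Within the family, miR-130b has been tied to self-renewal of liver tumor-initiating cells. The guide strand is the arm of the hairpin that is kept in the silencing complex, and the passenger strand, marked with an asterisk in the names used here, is mostly discarded.

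The mature sequences of 4 of the 5 members (all but hsa-miR-130a) were found in RefSeq (GRCh38.p14) and are shown because their shared seed, bases 2 to 8 in capitals, defines the family.
hsa-miR-130b: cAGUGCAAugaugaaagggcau
hsa-miR-301a: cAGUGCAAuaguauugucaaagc
hsa-miR-301b: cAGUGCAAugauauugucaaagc
hsa-miR-454: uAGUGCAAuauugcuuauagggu

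The seed AGUGCAA stood at bases 2 to 8 of 6 of the 2370 mature miRNA names in the RefSeq table (0.253%). Beside the 4 members printed above, these were hsa-miR-3666 and hsa-miR-4295, each listed at 0 counts in all 4 libraries, which allows a level of up to 0.179 to 0.282 TPM (3 counts) depending on the library. hsa-miR-301a and hsa-miR-301b were identical at 21 of 23 positions and differed by A10G and G11A, counted from 1 at the 5′ end with the base of hsa-miR-301a first. Reads of these miRNAs were therefore told apart by 2 bases, and how reads with a mismatch were assigned was not given in the sources used here. hsa-miR-130b shared its first 12 bases with hsa-miR-301b and its first 9 with hsa-miR-301a, and hsa-miR-454 differed from the other three printed members already at base 1.

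The genes lie at 3 places in the genome (GENCODE 29, GRCh38). MIR301B (chr22:21652981-21653058) and MIR130B (chr22:21653304-21653385) are on the plus strand with 245 bases between them, the first in an intron and the second overlapping an exon of the non-coding gene AP000553.1. MIR454 (chr17:59137758-59137872) and MIR301A (chr17:59151136-59151221) are on the minus strand with 13263 bases between them, both in introns of SKA2, a protein-coding gene of chromosome segregation. MIR130A (chr11:57641198-57641286) is on the plus strand in an intron of AP000662.1. The study mapped its reads to an older build of the genome, and the count files held names without coordinates.

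Counts assigned to miRNAs came to between 1739278 and 5741567 per library, which was 10.4% of the total reads in Hep3B and 35.2% in Hep3B-C, against 54.1% in Huh7 and 37.8% in Huh7-C. Levels are given as TPM, the counts of a library scaled to 1000000 total reads. For hsa-miR-130b, the family sum and hsa-miR-130b* they are also given as shares of the miRNA counts, since the share of reads that were miRNAs moved 5.22-fold between libraries. The 3 liver markers, hsa-miR-122, hsa-miR-192 and hsa-miR-194, were above 3 counts in all libraries and summed to between 10997 and 115636 TPM. hsa-miR-122, the main hepatocyte miRNA, was at 23.7 TPM in Hep3B and 9708 in Hep3B-C, with 46077 in Huh7 and 13515 in Huh7-C. The 8 markers of blood, endothelial, stromal and neural cells summed to 83.7 TPM in Hep3B and 211 in Hep3B-C, against 276 in Huh7 and 154 in Huh7-C, and 3 to 5 of them were at or below 3 counts in each library. hsa-miR-124, the neural marker, was at 0 in all 4 libraries, and the myeloid marker hsa-miR-223 had 1 count in Hep3B and 0 elsewhere. The endothelial marker hsa-miR-126 made up much of these sums, at 48.1 TPM in Hep3B and 96.3 in Hep3B-C, against 191 in Huh7 and 151 in Huh7-C. Others of the list were higher in some libraries than in the rest. The erythroid marker hsa-miR-451 had 773 counts (72.8 TPM) in Huh7 and 1 or 2 counts in each other library, and the blood cell marker hsa-miR-142-3p had 20 counts in Huh7 and 0 to 4 elsewhere. The stromal marker hsa-miR-143 was at 25.4 TPM in Hep3B and 110 in Hep3B-C, with 3.11 in Huh7 and 1.21 in Huh7-C. Both libraries of the Hep3B line were thus above both of the Huh7 line for hsa-miR-143, as for most of the family. The other stromal markers of the list were hsa-miR-199a-3p and hsa-miR-145. hsa-miR-199a-3p was at 9.83 TPM in Hep3B and 4.14 in Hep3B-C, with 6.78 in Huh7 and 1.21 in Huh7-C. hsa-miR-145 had 5 counts in Hep3B-C and 0 elsewhere. The part of these markers in the results below was not tested.

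hsa-miR-130b made up most of the family in every library. It had 5815 counts in Hep3B and 12243 in Hep3B-C, against 1148 in Huh7 and 1247 in Huh7-C. These were 346 TPM (95% interval 338 to 356), 793 (779 to 807), 108 (102 to 115) and 116 (110 to 123). The intervals here and below are exact Poisson or binomial (Clopper-Pearson) intervals, and they cover counting error only, since reads without molecular identifiers are not independent molecules. By TPM, both libraries of the Hep3B line were above both libraries of the Huh7 line, and Hep3B-C was the highest. As a share of the miRNA counts, hsa-miR-130b was 0.334% in Hep3B and 0.225% in Hep3B-C, against 0.0200% in Huh7 and 0.0308% in Huh7-C. On that scale Hep3B was the highest, and the Hep3B line was still above the Huh7 line. By level, hsa-miR-130b ranked 32nd among the miRNAs of Hep3B, 40th in Hep3B-C, 91st in Huh7 and 74th in Huh7-C.

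hsa-miR-454, whose gene shares SKA2 with MIR301A, was next in both libraries of the Hep3B line. It had 627 counts in Hep3B and 1268 in Hep3B-C, against 47 in Huh7 and 49 in Huh7-C, or 37.4, 82.1, 4.42 and 4.57 TPM. hsa-miR-301a followed with 248, 477, 32 and 31 counts, or 14.8, 30.9, 3.01 and 2.89 TPM in the same order of libraries. Both were high in Hep3B and Hep3B-C and low in Huh7 and Huh7-C, and the 2 libraries of the Huh7 line lay within each other's intervals.

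hsa-miR-301b, the cluster partner of hsa-miR-130b, was far scarcer than that partner. It had 35 counts in Hep3B and 127 in Hep3B-C, against 10 in Huh7 and 11 in Huh7-C, or 2.09, 8.23, 0.941 and 1.03 TPM. The Huh7 values rest on about 10 counts each, with intervals of 0.451 to 1.73 and 0.512 to 1.84 TPM. By TPM, Hep3B-C was the highest of the 4 libraries for this member as well.

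hsa-miR-130a was the one member with a different pattern. It had 2 counts in Hep3B and 3 in Hep3B-C, against 49 in Huh7 and 2 in Huh7-C, or 0.119, 0.194, 4.61 (3.41 to 6.10) and 0.187 TPM. Only Huh7 stood above 3 counts, and the other three libraries cannot be ordered at this depth. The blood markers hsa-miR-451 (773 counts in Huh7) and hsa-miR-142-3p (20 counts) were also highest in Huh7. The blood marker hsa-miR-223 was at 0 counts there and had 1 count in Hep3B. The part of these markers in the level of hsa-miR-130a was not tested.

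**Figure D1:**
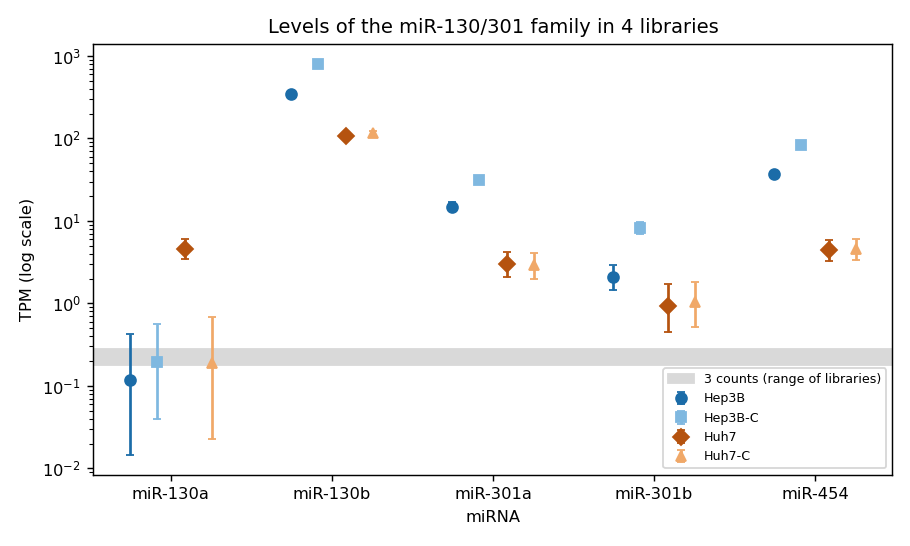
Level of each member (x axis) in TPM on a log scale (y axis) in the 4 libraries, with 1 point per library and bars for the 95% Poisson interval of the count. hsa-miR-130b is highest in every library (108 to 793 TPM), the blue Hep3B and Hep3B-C points lie above the orange Huh7 and Huh7-C points for the 4 members other than hsa-miR-130a, and hsa-miR-130a rises above the grey band of 3 counts in Huh7 alone.

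Within a library the order of the members was hsa-miR-130b, hsa-miR-454, hsa-miR-301a and hsa-miR-301b in Hep3B and Hep3B-C, where no neighbours in that order had overlapping intervals. In Huh7 the intervals of hsa-miR-130a (3.41 to 6.10 TPM), hsa-miR-454 (3.25 to 5.88) and hsa-miR-301a (2.06 to 4.25) overlapped, so the order below hsa-miR-130b was not resolved for those 3. In Huh7-C the interval of hsa-miR-454 (3.38 to 6.05 TPM) overlapped that of hsa-miR-301a (1.97 to 4.11). The printed mature sequences are 22 or 23 nt long, so length hardly enters these comparisons, but the efficiency with which each was captured in the library is not known.

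Summed over its 5 members, the family had 6727 counts in Hep3B and 14118 in Hep3B-C, against 1286 in Huh7 and 1340 in Huh7-C. This corresponded to 401 TPM (391 to 411), 914 (899 to 930), 121 (115 to 128) and 125 (118 to 132). As a share of the miRNA counts it was 0.387% in Hep3B and 0.260% in Hep3B-C, against 0.0224% in Huh7 and 0.0331% in Huh7-C. The order of Hep3B and Hep3B-C thus depended on the denominator, while the Hep3B line was above the Huh7 line on both scales.

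The make-up of the family was compared between libraries by each member's share of the family's counts, which does not depend on the denominator. hsa-miR-130b took 86.4% in Hep3B (95% interval 85.6 to 87.3) and 86.7% in Hep3B-C (86.1 to 87.3), against 89.3% in Huh7 (87.4 to 90.9) and 93.1% in Huh7-C (91.6 to 94.4). hsa-miR-454 took 9.32% and 8.98% in Hep3B and Hep3B-C against 3.65% and 3.66% in Huh7 and Huh7-C. hsa-miR-301a took 3.69%, 3.38%, 2.49% and 2.31%, and hsa-miR-301b between 0.520% and 0.900%. hsa-miR-130a took 3.81% in Huh7 (2.83 to 5.01) and between 0.0212% and 0.149% elsewhere. With hsa-miR-130a left out, the share of hsa-miR-130b was 92.8% in Huh7 (91.2 to 94.2) and 93.2% in Huh7-C (91.7 to 94.5), so its lower share in Huh7 came with the counts of hsa-miR-130a.

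**Figure D2:**
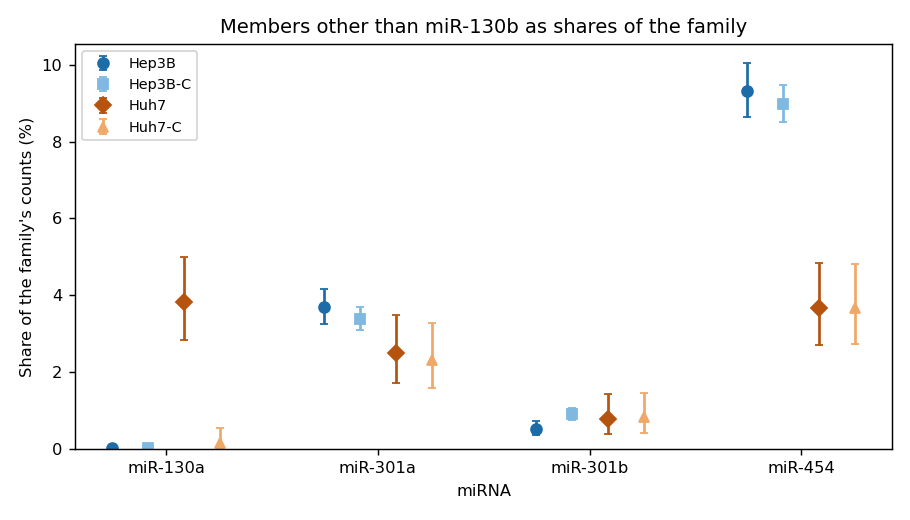
Share of the family's counts in percent (y axis) taken by the 4 members other than hsa-miR-130b (x axis) in each library, with 95% Clopper-Pearson intervals. hsa-miR-454 is near 9% in Hep3B and Hep3B-C and 3.65% and 3.66% in Huh7 and Huh7-C, and hsa-miR-130a reaches 3.81% in Huh7.

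The study asked which miRNAs differed between HCSCs and the HCC cells they were derived from, so Hep3B-C was set against Hep3B (the Hep3B pair) and Huh7-C against Huh7 (the Huh7 pair). A miRNA was called when its absolute log2 fold-change of TPM was at least 1 and its adjusted p at most 0.01 by the exact test for Poisson counts that Audic and Claverie described. This test compares the reads of 2 libraries, not the conditions, and holds no error between cultures.

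In the Hep3B pair, 4 of the 5 members were called higher in Hep3B-C and 0 lower. Of the 834 miRNAs tested, 33% were called higher and 2.52% lower. With the test limited to the 475 miRNAs that had at least 10 counts in either library, 277 were called higher and 21 lower. hsa-miR-130b was 2.29-fold higher in Hep3B-C (log2 fold-change 1.19, 95% interval 1.15 to 1.24), with an adjusted p below the smallest number that could be computed. hsa-miR-301a was 2.09-fold higher (1.06, 0.84 to 1.29), with an adjusted p of 2.44e-21 by the exact test. hsa-miR-301b was 3.94-fold higher (1.98, 1.43 to 2.56), with an adjusted p of 1.51e-14 by the exact test. hsa-miR-454 was 2.20-fold higher (1.14, 0.997 to 1.28), with an adjusted p of 2.51e-61 by the exact test. hsa-miR-130a, with 2 and 3 counts, could not be compared at this depth.

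These rises were read against the other miRNAs of the pair. The median log2 fold-change of the 475 miRNAs that reached 10 counts in one library or the other was 1.42, beside a median of 1.17 for the 4 members with a fold. hsa-miR-130b, hsa-miR-301a and hsa-miR-454 lay below that median, by -0.23, -0.36 and -0.29 on the log2 scale, and hsa-miR-301b lay 0.56 above it. The share of reads that were miRNAs rose from 10.4% to 35.2% in the same pair. Per total miRNA counts, the log2 fold-change of hsa-miR-130b was -0.57 (-0.61 to -0.52), that of hsa-miR-301a -0.70 (-0.92 to -0.47) and that of hsa-miR-454 -0.63 (-0.77 to -0.49). hsa-miR-301b stayed positive on that scale at 0.22, with an interval of -0.33 to 0.80 that included 0, and 0 members were called higher. The direction for 3 of the 4 members therefore turned with the choice of denominator.

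In the Huh7 pair, 0 of the 5 members were called higher in Huh7-C and 1 was called lower. Of the 772 miRNAs tested, 2.98% were called higher and 17.1% lower. With the test limited to the 431 miRNAs that had at least 10 counts in either library, 24 were called higher and 137 lower. hsa-miR-130a was the member called lower, with 49 counts in Huh7 and 2 in Huh7-C. Its log2 fold-change was -4.63 with a counting interval of -7.71 to -2.70, and its adjusted p by the exact test was 2.93e-12. In the same pair hsa-miR-451 went from 773 counts to 2 and hsa-miR-142-3p from 20 to 3, while hsa-miR-223 was at 0 in both libraries. Per total miRNA counts the log2 fold-change of hsa-miR-130a was -4.11 (-7.20 to -2.18), so its direction held on both scales. Its level in Huh7-C rests on 2 counts, and assuming a biological coefficient of variation of 0.4 ended the call.

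For the other four members the Huh7 pair gave small differences per total reads. The log2 fold-change was 0.11 for hsa-miR-130b (-0.01 to 0.22), -0.06 for hsa-miR-301a (-0.82 to 0.70), 0.12 for hsa-miR-301b (-1.25 to 1.52) and 0.05 for hsa-miR-454 (-0.56 to 0.66). All 4 intervals included 0, and those of hsa-miR-301a, hsa-miR-301b and hsa-miR-454 also took in changes of 0.56 on the log2 scale in either direction. The median log2 fold-change of the 431 miRNAs that reached 10 counts in one library or the other was -0.66, and these 4 members lay 0.61 to 0.79 above it. Per total miRNA counts hsa-miR-130b was higher in Huh7-C by a log2 fold-change of 0.62 (0.51 to 0.74), and the interval for hsa-miR-454 (-0.04 to 1.17) included 0.

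**Figure D3:**
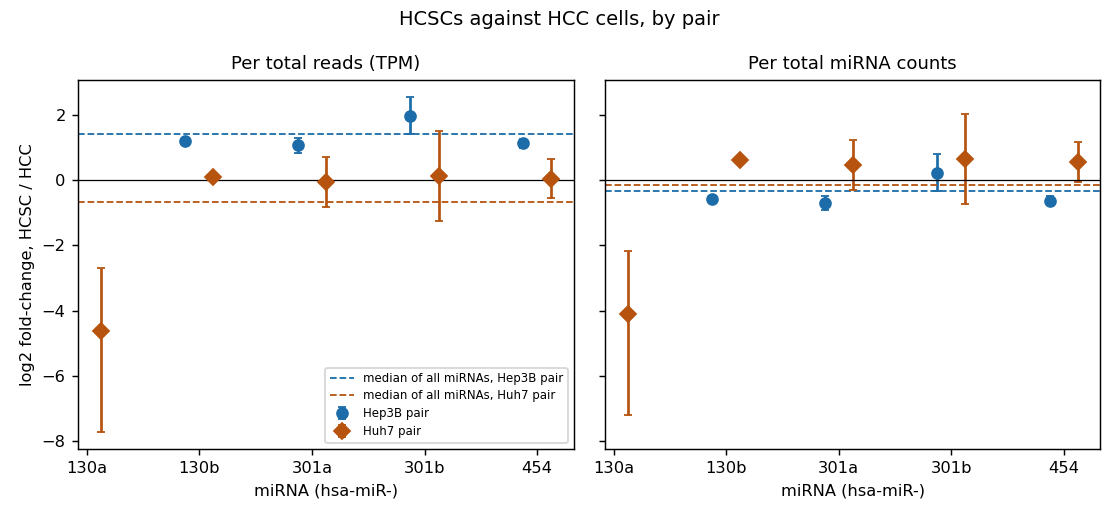
log2 fold-change of HCSCs over HCC cells (y axis) for each member (x axis) in the Hep3B pair (blue) and the Huh7 pair (orange), per total reads on the left and per total miRNA counts on the right, with 95% counting intervals and dashed lines for the median of all miRNAs with at least 10 counts. hsa-miR-130a has no point in the Hep3B pair. The blue points are above 0 on the left, and on the right all of them but hsa-miR-301b are below 0. hsa-miR-130a in the Huh7 pair is below 0 in both panels.

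Per total reads, the fold-change in the Hep3B pair exceeded that in the Huh7 pair for the 4 members with values in both, and per total miRNA counts the order was the reverse. The conditional estimate of the difference of the log2 fold-changes per total reads was 1.09 for hsa-miR-130b (0.96 to 1.21), 1.12 for hsa-miR-301a (0.33 to 1.92), 1.84 for hsa-miR-301b (0.33 to 3.35) and 1.09 for hsa-miR-454 (0.46 to 1.71). The intervals lay above 0, but they cover counting error only, and the median of all miRNAs differed between the pairs in the same direction and by more (1.42 against -0.66). Per total miRNA counts the log2 fold-changes in the Hep3B and the Huh7 pair were -0.57 and 0.62 for hsa-miR-130b, -0.70 and 0.46 for hsa-miR-301a, 0.22 and 0.64 for hsa-miR-301b and -0.63 and 0.57 for hsa-miR-454.

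The comparison of HCSCs with HCC cells over both lines was fitted with edgeR's quasi-likelihood test, with the line as a block and TMM normalization. Of the 443 miRNAs that reached 10 counts in 2 or more libraries, 0% were called at an adjusted p of at most 0.05, so 0 members were called. At an unadjusted p under 0.05 there were 31 miRNAs, and DESeq2 called 5, none of them a member. The log2 differences were 0.33 for hsa-miR-130b, 0.17 for hsa-miR-301a, 0.74 for hsa-miR-301b and 0.26 for hsa-miR-454, with edgeR adjusted p-values of 0.891, 0.913, 0.653 and 0.900. hsa-miR-130a did not reach the count filter. Leaving out 1 library also dropped the line block, so those runs did not separate the state from the line. Without Hep3B-C the difference was negative for all 4 members, from -2.94 for hsa-miR-454 to -1.10 for hsa-miR-301b. Without Huh7 it was negative for 3 of them, hsa-miR-130b (-0.73), hsa-miR-301a (-0.95) and hsa-miR-454 (-0.95). The fit with the line block had 1 residual degree of freedom and a common biological coefficient of variation of 0.546.

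The levels of the 4 members other than hsa-miR-130a were higher in the Hep3B line than in the Huh7 line. By TPM, hsa-miR-130b was 3.21-fold higher in Hep3B than in Huh7 and 6.81-fold higher in Hep3B-C compared with Huh7-C. hsa-miR-454 was 8.44-fold and 18-fold higher, hsa-miR-301a 4.91-fold and 10.7-fold higher, and hsa-miR-301b 2.22-fold and 8.01-fold higher in the same comparisons. The sum of the family was 3.31-fold and 7.31-fold higher. The 2.22-fold of hsa-miR-301b rests on 35 counts in Hep3B and 10 in Huh7. Its log2 ratio of Huh7 over Hep3B was -1.15, with a counting interval of -2.33 to -0.10 that came close to 0. Per total miRNA counts the log2 ratio of Huh7 over Hep3B was -4.11 for the sum and that of Huh7-C over Hep3B-C -2.97, so the direction was the same on both scales. hsa-miR-130a went the other way among the HCC cells, being 38.7-fold higher in Huh7 than in Hep3B (log2 5.27, counting interval 3.34 to 8.36), from 49 counts and 2. Its log2 ratio per total miRNA counts was smaller, at 2.89 (0.96 to 5.98).

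The line term of the same edgeR fit, a contrast chosen after the values had been seen, gave log2 differences of Huh7 and Huh7-C over Hep3B and Hep3B-C of -2.62 for hsa-miR-130b, -3.25 for hsa-miR-301a, -2.46 for hsa-miR-301b and -4.02 for hsa-miR-454. The edgeR adjusted p-values were 0.0507, 0.0343, 0.0465 and 0.0321, so 3 of the 4 members tested were called lower in the Huh7 line, where 9.71% of all miRNAs tested were called lower. The median log2 difference over the 443 miRNAs was 0.03 and that of the 4 members -2.94. Which members were called depended on the fit. DESeq2 also called 3, with hsa-miR-130b (DESeq2 adjusted p of 5.42e-05) in place of hsa-miR-301b (0.108). edgeR without the count filter likewise called hsa-miR-130b (edgeR adjusted p of 0.0316) and not hsa-miR-301b (0.0533). With total reads as library sizes 0 members were called, at log2 differences of -2.22 for hsa-miR-130b, -2.85 for hsa-miR-301a, -2.08 for hsa-miR-301b and -3.62 for hsa-miR-454. Leaving out Huh7 or Huh7-C, with the state term dropped as well, also gave 0 members called, at -3.72 to -2.19 without Huh7 and -4.22 to -2.76 without Huh7-C. Each state of a line was 1 library, so the line and anything else that the libraries of a line share cannot be told apart. In bulk libraries, a lower share of cells holding a miRNA and less of it per cell cannot be told apart either.

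**Figure D4:**
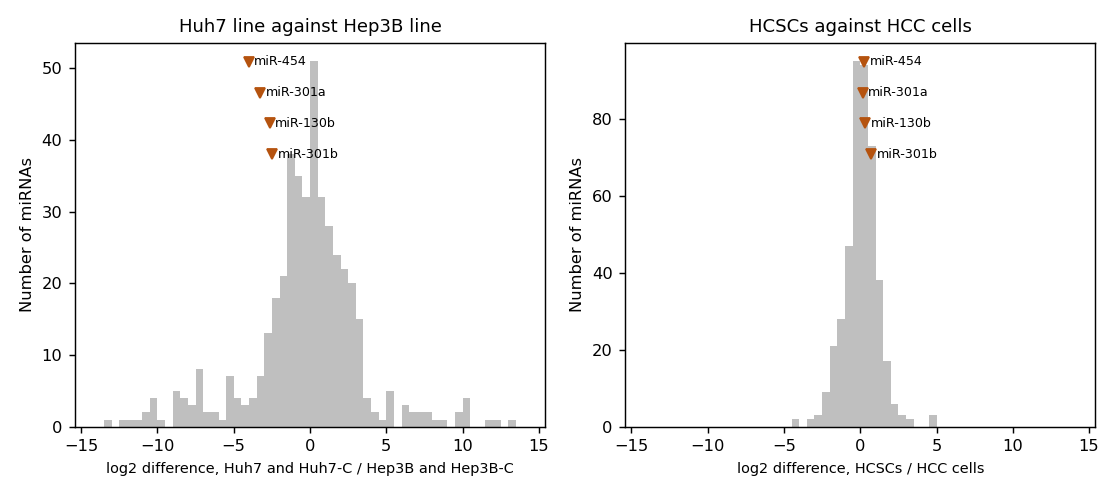
Histograms of the log2 differences of the 443 miRNAs in the edgeR fit (x axis, log2; y axis, number of miRNAs) between the lines on the left and between HCSCs and HCC cells on the right, with triangles at the 4 members tested. The members lie between -4.02 and -2.46 on the left and between 0.17 and 0.74 on the right.

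Ratios of counts within a library were compared next, because they cancel the depth and the share of miRNA reads. Changes of a ratio between libraries are conditional odds ratio estimates, which can differ slightly from the quotient of the printed ratios. hsa-miR-454 to hsa-miR-301a, both from SKA2 introns, was 2.53 in Hep3B (95% interval 2.18 to 2.94) and 2.66 in Hep3B-C (2.39 to 2.96), against 1.47 in Huh7 (0.918 to 2.38) and 1.58 in Huh7-C (0.988 to 2.56). It changed 1.05-fold (0.873 to 1.26) in the Hep3B pair and 1.08-fold (0.543 to 2.13) in the Huh7 pair. Between the lines it was 1.72-fold (1.04 to 2.83) higher in Hep3B than in Huh7 and 1.68-fold (1.02 to 2.73) higher in Hep3B-C compared with Huh7-C.

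hsa-miR-130b to hsa-miR-301b, 245 bases apart on chromosome 22, was 166 in Hep3B (119 to 239) and 96.4 in Hep3B-C (80.9 to 116), against 115 in Huh7 (62.2 to 240) and 113 in Huh7-C (63.1 to 228). It changed 0.580-fold (0.387 to 0.851) in the Hep3B pair, the one change of this ratio whose interval left out 1. The larger fold-change of hsa-miR-301b in that pair was thus not shared by its cluster partner. In the Huh7 pair the change was 0.987-fold (0.374 to 2.57).

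hsa-miR-130b to hsa-miR-454, from different chromosomes, was 9.27 in Hep3B (8.54 to 10.1) and 9.66 in Hep3B-C (9.11 to 10.2), against 24.4 in Huh7 (18.2 to 33.4) and 25.4 in Huh7-C (19.1 to 34.6). This ratio, chosen after the values had been seen, changed 1.04-fold in both pairs, with intervals of 0.940 to 1.15 in the Hep3B pair and 0.677 to 1.60 in the Huh7 pair. It was 2.63-fold (1.94 to 3.65) higher in Huh7 than in Hep3B and 2.64-fold (1.97 to 3.60) higher in Huh7-C than in Hep3B-C. The summed chromosome 22 members over the summed chromosome 17 members gave 6.69, 7.09, 14.7 and 15.7 in Hep3B, Hep3B-C, Huh7 and Huh7-C. The balance of the loci thus differed between the lines by more than the counting error, and in neither pair did its change between HCC cells and HCSCs exceed the counting error.

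The passenger strands hsa-miR-130a*, hsa-miR-130b* and hsa-miR-454* gave a second readout of their hairpins. The RefSeq sequences of hsa-miR-130b* and hsa-miR-454* are printed to show that they carry other seeds (capitals) than the guides.
hsa-miR-130b*: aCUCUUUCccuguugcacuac
hsa-miR-454*: aCCCUAUCaauauugucucugc

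hsa-miR-454* had 12 counts in Hep3B and 22 in Hep3B-C, against 9 in Huh7 and 5 in Huh7-C, or 0.715, 1.42, 0.847 and 0.467 TPM. hsa-miR-130b* had 10, 35, 10 and 3 counts, or 0.596, 2.27, 0.941 and 0.280 TPM, and hsa-miR-130a* was at 0 in all 4 libraries. hsa-miR-130b* and hsa-miR-454* stayed below their guides in every library. For hsa-miR-130a, the arms cannot be ordered outside Huh7, because the guide itself had 2 or 3 counts there. In the Hep3B pair hsa-miR-130b* was 3.804-fold higher per total reads in Hep3B-C (log2 1.93, 0.88 to 3.11), with an adjusted p of 0.000228 by the exact test. This log2 fold-change lay 0.50 above the median of the pair. As a share of the miRNA counts, hsa-miR-130b* was 0.000575% in Hep3B (0.000276 to 0.00106) and 0.000645% in Hep3B-C (0.000449 to 0.000896), with overlapping intervals. hsa-miR-454* was not called in the Hep3B pair (0.99, -0.08 to 2.14). In the Huh7 pair neither was called, with log2 fold-changes of -1.75 (-4.25 to 0.21) for hsa-miR-130b*, which rests on 3 counts in Huh7-C, and -0.86 (-2.79 to 0.87) for hsa-miR-454*.

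The ratio of hsa-miR-454 to hsa-miR-454* was 52.2 in Hep3B (29.7 to 102) and 57.6 in Hep3B-C (37.9 to 92.3), against 5.22 in Huh7 (2.53 to 12.1) and 9.80 in Huh7-C (3.93 to 31.5). It was 9.93-fold (3.51 to 27.2) higher in Hep3B than in Huh7 and 5.86-fold (1.66 to 16.8) higher in Hep3B-C compared with Huh7-C. The guide was lower in the Huh7 line and the passenger strand was not lower to the same degree, on 5 to 22 passenger counts. The ratio of hsa-miR-130b to hsa-miR-130b* was 582 in Hep3B and 350 in Hep3B-C, against 115 in Huh7 and 416 in Huh7-C. It was 5.06-fold (1.89 to 13.6) higher in Hep3B than in Huh7, and between Hep3B-C and Huh7-C it was 0.842-fold (0.165 to 2.68), an interval that included 1.

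**Figure D5:**
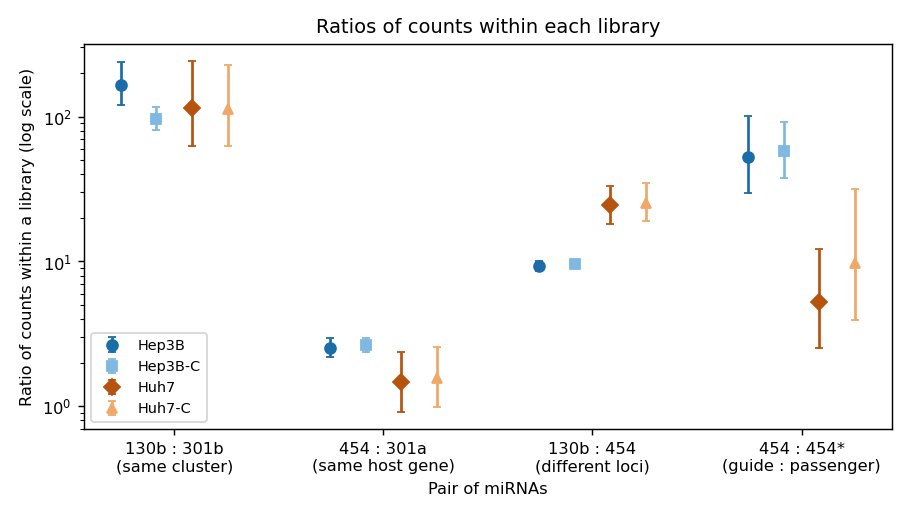
Ratio of the counts of 2 miRNAs within each library (y axis, log scale) for 4 pairs of miRNAs (x axis), with 95% intervals from the exact binomial. The ratio of hsa-miR-130b to hsa-miR-454 is 9.27 and 9.66 in the Hep3B line and 24.4 and 25.4 in the Huh7 line, and that of hsa-miR-454 to its passenger strand is 52.2 and 57.6 against 5.22 and 9.80.

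Among miRNAs outside the family, the pattern over the 4 libraries was most like that of the family sum for hsa-miR-181b, hsa-miR-17 and hsa-miR-181a. Likeness was the root mean square difference of log2 TPM after centering each miRNA on its mean over the 4 libraries, among 265 miRNAs with at least 10 counts in every library. It was 0.13 for hsa-miR-181b, 0.15 for hsa-miR-17 and 0.24 for hsa-miR-181a. The member hsa-miR-130b, which makes up most of the sum, was nearer at 0.043. The other members were farther, at 0.28 for hsa-miR-301a, 0.30 for hsa-miR-301b, 0.66 for hsa-miR-454 and 2.96 for hsa-miR-130a. hsa-miR-181b was at 698, 1244, 194 and 208 TPM in Hep3B, Hep3B-C, Huh7 and Huh7-C. Among miRNAs outside the family, those nearest to hsa-miR-130b were hsa-miR-17 and hsa-miR-181b (both 0.13). For hsa-miR-301a they were hsa-let-7b (0.19) and hsa-miR-181b (0.34), and for hsa-miR-301b hsa-miR-20a* (0.28) and hsa-miR-3691-5p (0.35). For hsa-miR-454 they were hsa-miR-125b-2* (0.37) and hsa-let-7b (0.44). Those nearest to hsa-miR-130a, hsa-miR-627 and hsa-miR-22*, differed from it by 0.72 and 0.76, and that pattern rests on libraries with 2 or 3 counts. The nearest family member was hsa-miR-301b for hsa-miR-130b (0.29), hsa-miR-130b for hsa-miR-301a (0.32) and hsa-miR-301b (0.29), and hsa-miR-301a for hsa-miR-454 (0.39). For hsa-miR-301a, hsa-miR-301b and hsa-miR-454 this member was nearer than the second outside miRNA named. For hsa-miR-130a the nearest member was hsa-miR-301b, at 2.92.

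Part of the seed recurs one base upstream or downstream in other miRNAs. miR-19a and miR-19b carry GUGCAA, the last 6 bases of the seed, at bases 2 to 7 (2 of 2370 names, 0.0844%). miR-148a, miR-148b and miR-152 carry AGUGCA, its first 6 bases, at bases 3 to 8, where 7 of 2370 names (0.295%) hold it. The list compared here held only these 5 miRNAs, so the other names with AGUGCA at those bases were left out. In the Hep3B pair 3 of these 5 miRNAs were called higher in Hep3B-C and 0 lower, beside 33% and 2.52% of all miRNAs tested. Among the 475 with at least 10 counts in either library, 277 were called higher and 21 lower. The log2 fold-changes of the 5 ran from 0.19 for hsa-miR-152 to 2.06 for hsa-miR-148a. In the Huh7 pair 2 of the 5 were called higher and 2 lower, beside 2.98% and 17.1% of all miRNAs tested. Among the 431 with at least 10 counts in either library, 24 were called higher and 137 lower. The log2 fold-changes of the 5 ran from -1.85 for hsa-miR-19b to 1.71 for hsa-miR-152.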

How the data were processed

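Small RNA of Hep3B, Hep3B-C, Huh7 and Huh7-C was sequenced by the authors on the Illumina Genome Analyzer II. They removed contaminant and redundant reads and reads under 18 nt, aligned the rest with SOAP to NCBI Build 36.1, set aside other small RNA classes and assigned reads to miRBase 17. The deposited values are raw read counts of 1733 miRNAs, with 1 library per condition. TPM was computed from these counts and the study's total reads per library, and a TPM of 0 was set to 0.001 in the pair comparisons. In each pair, miRNAs with at least 1 count were tested two-sided with the exact test for Poisson counts of Audic and Claverie and Benjamini-Hochberg adjustment over all of them. Both tails included the observed count. The study names only a method based on the Poisson distribution. Medians over all miRNAs used 0.5 added counts. Intervals of fold-changes and ratios were exact binomial, and ratio changes, the differences between the pairs and their intervals came from conditional odds ratios. edgeR 4.0.16 and DESeq2 1.42.0 in R 4.3.3 fitted the 4 libraries, and Python 3.11.15 with scipy 1.17.1 did the rest. The tests were checked on simulated data. No sample was left out of the fits, and the 4 libraries were grouped by the cell line label.

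The members, the lists of markers and shifted-seed miRNAs and the tests were chosen with earlier results of these data known. Named were all members, their passenger strands, other miRNAs of the seed, the highest and lowest of the shifted-seed list, and the miRNAs nearest to the family sum (3) and to each member (2). The mRNA libraries were not analysed here, and 1 further list of miRNAs is not reported here. With 1 library per condition, p-values in the pairs measure counting noise alone. Alternatives changed the library sizes, the test, the count filter, the assumed variation and the libraries used.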

Additional observations from a re-analysis of the deposited data

Results flagged for a closer look

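The log2 fold-change of hsa-miR-301a per total reads had opposite signs in the pairs, 1.06 between Hep3B-C and Hep3B and -0.058 between Huh7-C and Huh7, from 248 and 477 counts and from 32 and 31 counts. The interval of the second value, -0.82 to 0.70, included 0, so the opposite sign itself was not tested. Per total miRNA counts the signs were -0.70 and 0.46.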

How the results depend on the processing

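The library sizes decided the comparison of HCSCs with HCC cells. In the Hep3B pair the family sum had a log2 fold-change of 1.19 per total reads, -0.57 with total miRNA counts, 0.038 with TMM and 0.025 with DESeq2 size factors as library sizes. With these 3 alternatives 0 members were called higher. hsa-miR-130b went to -0.57 with total miRNA counts, hsa-miR-301a to -0.70, -0.087 and -0.10, and hsa-miR-454 to -0.63, -0.015 and -0.029 with total miRNA counts, TMM and DESeq2 size factors. In the Huh7 pair the family sum went from 0.05 to 0.56, 0.55 and 0.66, and hsa-miR-301a from -0.06 to 0.46, 0.45 and 0.55. Where the biological coefficient of variation was assumed to be 0.2 and 0.4, 1 and 0 members were called higher in the Hep3B pair, and at 0.4 the call of hsa-miR-130a in the Huh7 pair was lost (0 members lower). Beside 275 and 21 miRNAs called higher and lower in the Hep3B pair, total miRNA counts gave 44 and 112, and beside 23 and 132 in the Huh7 pair they gave 54 and 74. The exact binomial test, 0.5 added counts, a filter of 10 counts, an adjusted p of 0.05 and, chosen after seeing the data, an upper tail without the observed count left the calls of the members as they were.

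Over both lines DESeq2 called 5 miRNAs and edgeR 0. hsa-miR-301a turned to -0.060 with no count filter and to -0.034 without the line block. Leaving out 1 library, which also meant leaving out the line block and assumed that the lone library varies like the rest, turned all 4 members negative without Hep3B-C (-1.59 for hsa-miR-130b, -2.31 for hsa-miR-301a, -1.10 for hsa-miR-301b, -2.94 for hsa-miR-454) and 3 of them without Huh7 (-0.73, -0.95 and -0.95 for hsa-miR-130b, hsa-miR-301a and hsa-miR-454). The highest values came without Hep3B, at 2.34 for hsa-miR-130b, 2.75 for hsa-miR-301a, 2.56 for hsa-miR-301b and 3.54 for hsa-miR-454. For the line term, DESeq2 called 135 miRNAs and total reads as library sizes 52, against 86 by edgeR, and leaving out 1 library gave 31 to 87. The number of members called was 0 with total reads as library sizes and 0 to 4 with 1 library left out, while the log2 differences of the 4 members stayed between -4.22 and -2.08 in every alternative run. In the runs with 1 library left out, the state and the line were not separated. The cause of these shifts was not tested. The depth limits hsa-miR-130a in 3 libraries, and hsa-miR-301b and the passenger strands in the Huh7 line, to a few counts.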
